A study of Mus musculus with 18 samples.

Results

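Zscan4b, Zscan4c, Zscan4d, Zscan4e, Tdpoz3, Zfp352, Pramel19, Pramel20 and Tmem92 are 9 genes whose RNA marks the two-cell-like state of mouse embryonic stem cells. They were taken by symbol from the 22180 genes of the arrays, each through the one of its probe sets that had the highest mean of the 18 arrays, and were followed across genotype and day of differentiation. The 9 genes were chosen by their measured levels, in particular the genotype differences at day 0 and day 7 and the high level in wild-type cells at day 7. Their levels at those days are therefore a description without a test, and only the genotype difference at day 21, which the choice did not use, was tested for them.

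The cells were F1 (C57Bl6N x 129Sv) embryonic stem cells that carried a working Pax7 gene (Pax7+/+) or lacked one (Pax7-/-). RNA was taken at day 0 from undifferentiated cells with LIF, the cytokine that holds stem cells undifferentiated, at day 7 from embryoid bodies, which are floating aggregates of differentiating cells, and at day 21 from their attached outgrowths. The cultures of day 7 and day 21 had no LIF and received RA (retinoic acid) and ITS. Each of the 6 groups had 3 Affymetrix arrays, labelled as biological replicates, and the labels do not say whether a genotype was 1 clone or several. P-values then measure only the spread between these samples.

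The two-cell-like state is a transient condition in which a small fraction of cultured stem cells switches on transcripts of the embryo at the time its own genome is first activated. Zscan4 proteins carry a SCAN domain and zinc fingers and are known for maintaining telomeres in stem cells. The state can be brought on by the double homeobox factor Dux and is held back by chromatin regulators, among them CAF-1, histone deacetylases and a noncanonical Polycomb complex. Pax7 is a paired box and homeodomain transcription factor best known from muscle satellite cells.

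Sequences upstream of the genes are shown first, since the Zscan4 copies are nearly identical and the other members are not. RefSeq promoter windows of the assembly GRCm38.p6, which run from 250 bases before to 50 bases after the annotated start, were found for 6 of the 9 genes. None was matched for Zscan4e, Tdpoz3 and Tmem92. The 250 bases before the start are given 5′ to 3′ for a pair of Zscan4 genes (chr7:11005495-11005744, plus strand, for Zscan4c and chr7:11166149-11166398, minus strand, for Zscan4d), for Pramel20 (chr4:143567217-143567466, plus strand) and for Zfp352 (chr4:90218570-90218819, plus strand). Capitals mark TGATTNAA, letters that lie within the binding motif known for Dux, and TATAAAA, the letters of a core promoter box.
Zscan4c: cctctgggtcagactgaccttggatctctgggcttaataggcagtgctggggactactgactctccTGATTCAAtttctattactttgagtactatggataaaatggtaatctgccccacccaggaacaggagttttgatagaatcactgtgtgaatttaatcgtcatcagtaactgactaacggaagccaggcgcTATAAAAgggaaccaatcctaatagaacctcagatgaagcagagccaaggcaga
Zscan4d: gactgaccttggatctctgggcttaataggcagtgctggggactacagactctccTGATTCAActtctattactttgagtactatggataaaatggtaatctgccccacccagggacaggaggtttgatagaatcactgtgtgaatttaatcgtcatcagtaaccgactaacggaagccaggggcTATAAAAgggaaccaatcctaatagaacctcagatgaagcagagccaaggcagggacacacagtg
Pramel20: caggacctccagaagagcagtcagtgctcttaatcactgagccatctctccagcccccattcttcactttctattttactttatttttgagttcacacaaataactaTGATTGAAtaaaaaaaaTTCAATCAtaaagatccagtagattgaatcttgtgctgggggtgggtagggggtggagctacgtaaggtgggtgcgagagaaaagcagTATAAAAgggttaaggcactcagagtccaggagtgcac
Zfp352: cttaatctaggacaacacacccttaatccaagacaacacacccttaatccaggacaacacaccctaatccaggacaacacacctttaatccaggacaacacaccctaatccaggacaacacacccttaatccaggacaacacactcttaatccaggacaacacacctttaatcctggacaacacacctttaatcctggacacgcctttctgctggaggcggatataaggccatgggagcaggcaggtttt
The windows of Zscan4c and Zscan4d were identical at 97.2% of 289 aligned bases, and those of Zscan4b and Zscan4d at 97.7% of 266. Pairs of members from different families were identical at 30.2% to 33.1% of the compared bases. TGATTNAA, searched on both strands, stood in 4 of the 6 windows (Zscan4b, Zscan4c, Zscan4d and Pramel20) and in 2.87% of all 32851 RefSeq windows. It began 184 bases before the start in Zscan4c, 195 bases before in Zscan4d, and 143 and 126 bases before, on opposite strands, in Pramel20. GATTNAATC, which can overlap that motif, stood only in Pramel20 among the 6 windows, apart from both TGATTNAA matches and not in capitals, and in 0.268% of all windows. TATAAAA was found in the same 4 windows, against 5.48% of all, and began 54, 65 and 38 bases before the start of Zscan4c, Zscan4d and Pramel20. The Zfp352 window had neither and instead repeated GACAACACAC in 9 copies. TGCACAC, letters within a motif known for Zscan4 protein, was in none of the 6 windows and in 4.4% of all. These matches are letters in a window and were not tested as binding sites. The Zscan4 windows are near copies of each other, so their matches are not independent of one another.

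The 18 arrays came in 2 sets that differed in spread, and all values are read within each set. The narrow set held 10 arrays with a standard deviation (SD) of 1.37 to 1.45 log2 over their probe sets. The wide set held 8 arrays with an SD of 1.79 to 1.85 log2. Each group held arrays of both sets. Pearson correlations of arrays over the 22180 genes were 0.911 to 0.994 within a set and 0.674 to 0.822 between sets. The probe set of Pax7 read 5.61 to 6.37 log2 on narrow arrays and 4.68 to 5.53 log2 on wide arrays over all groups of both genotypes. Where its probes lie in the gene was not known here, so this reading checks no label. As a check of the day labels, the mean level of 17 naive pluripotency markers was 7.51 to 7.63 log2 on the 4 narrow arrays of day 0 and 5.67 to 5.79 log2 on the 3 narrow arrays of day 21.

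All 9 genes had their highest group level in wild-type embryoid bodies of day 7, on narrow and on wide arrays. The 4 Zscan4 genes, Tdpoz3, Pramel19 and Tmem92 also read higher in Pax7-/- than in Pax7+/+ stem cells at day 0. At day 21 none of the 9 passed a test between the genotypes. Fewer cells of a type and less RNA per cell cannot be told apart in such bulk samples.

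**Figure D1:**
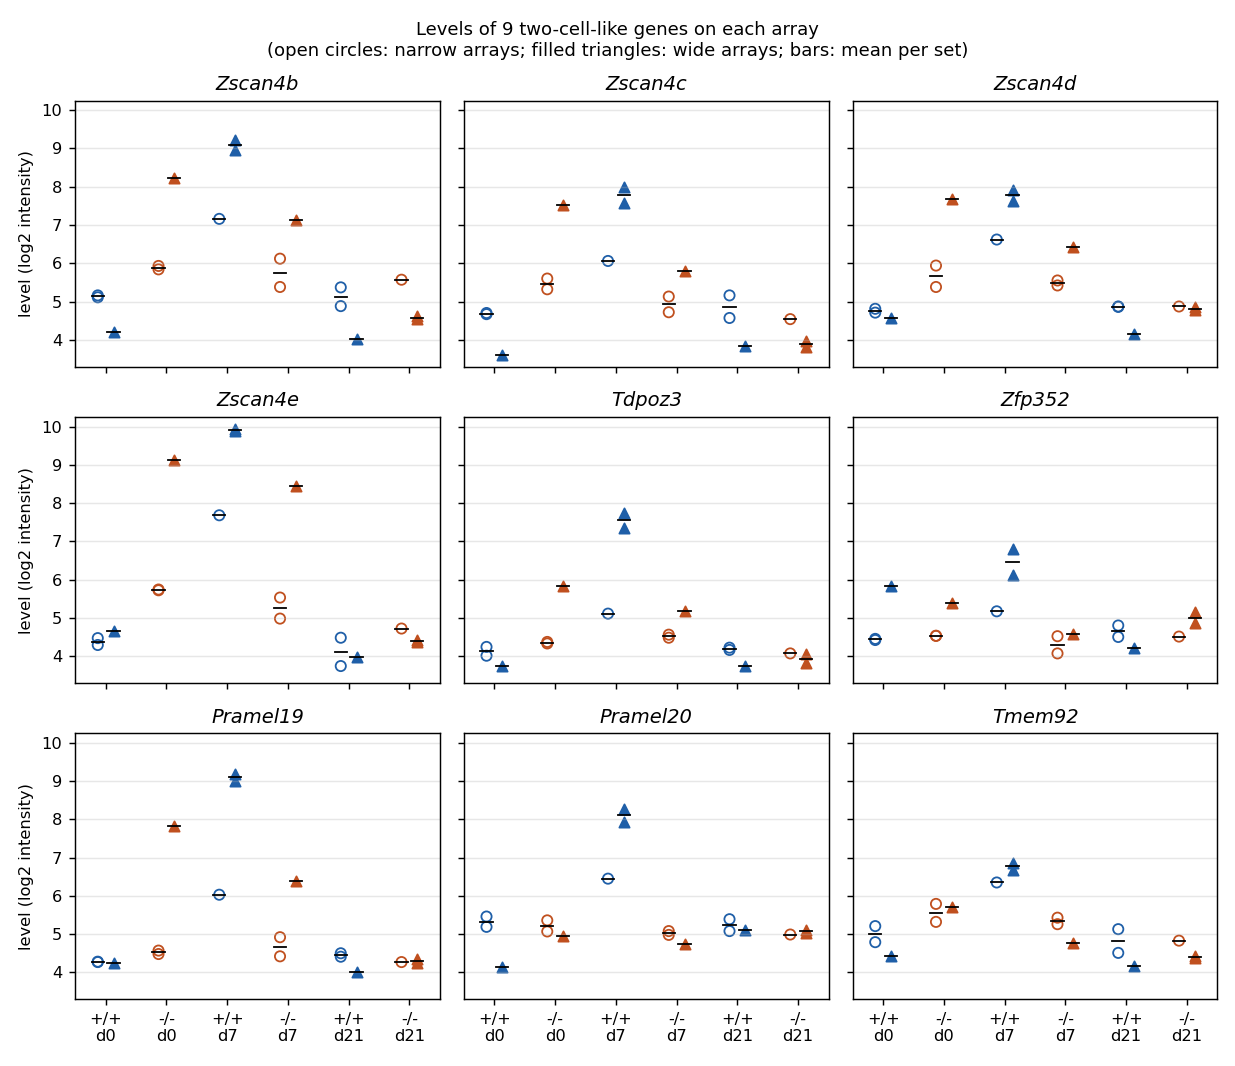
Level (log2 intensity) of each of the 9 genes on each of 18 arrays, by genotype (blue Pax7+/+, orange Pax7-/-) and day. Open circles are narrow arrays, filled triangles wide arrays and bars the mean of the arrays of a set. In every panel, within each set, the arrays of Pax7+/+ day 7 lie above those of Pax7-/- day 7, and Zscan4e on wide arrays reached 9.89 and 9.93 log2.

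Zscan4e, annotated as a pseudogene of the Zscan4 cluster on chromosome 7, had the widest range of the 4 copies. On narrow arrays it read 4.47 and 4.29 log2 in Pax7+/+ cells at day 0, 5.72 and 5.74 in Pax7-/- cells at day 0, 7.68 in Pax7+/+ at day 7, 4.98 and 5.53 in Pax7-/- at day 7, 4.48 and 3.74 in Pax7+/+ at day 21, and 4.72 in Pax7-/- at day 21. On wide arrays the same groups read 4.65, 9.12, 9.89 and 9.93, 8.44, 3.97, and 4.43 and 4.36 log2. The order Pax7+/+ day 7, Pax7-/- day 0, Pax7-/- day 7 was thus the same in both sets, and the remaining 3 groups lay between 3.74 and 4.72 log2 on narrow and between 3.97 and 4.65 log2 on wide arrays.

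Zscan4b, a protein-coding copy of the same cluster, followed the same order on wide arrays. Its narrow arrays read 5.16 and 5.11 log2 in Pax7+/+ and 5.93 and 5.84 in Pax7-/- cells at day 0, 7.16 in Pax7+/+ and 5.38 and 6.12 in Pax7-/- embryoid bodies at day 7, and 5.37 and 4.88 in Pax7+/+ and 5.57 in Pax7-/- outgrowths. Its wide arrays read 4.21 and 8.22 log2 at day 0, 8.96 and 9.22 in Pax7+/+ and 7.12 in Pax7-/- at day 7, and 4.03 in Pax7+/+ and 4.55 and 4.61 in Pax7-/- at day 21. On narrow arrays Pax7-/- day 0 and Pax7-/- day 7 overlapped, so their order was not settled there.

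Zscan4c, the copy whose promoter is often used to mark two-cell-like cells, had the same pattern. At day 0 it read 4.67 and 4.70 (narrow) and 3.61 (wide) log2 in Pax7+/+, and 5.32 and 5.60 (narrow) and 7.53 (wide) in Pax7-/-. The day 7 readings were 6.06 (narrow), 7.57 and 8.0 (wide) in Pax7+/+, and 4.72 and 5.13 (narrow) and 5.81 (wide) in Pax7-/-. The genotypes did not overlap within either set at these days, and the direction at day 7 was opposite to that at day 0. At day 21 Zscan4c read 5.16, 4.57 (narrow) and 3.83 (wide) in Pax7+/+ and 4.54 (narrow), 3.80 and 3.96 (wide) in Pax7-/-, lower in Pax7-/- on narrow arrays and overlapping on wide ones.

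Zscan4d, the copy known from two-cell embryos, read 4.81 and 4.71 (narrow) and 4.56 (wide) log2 in Pax7+/+ cells at day 0 against 5.38 and 5.94 (narrow) and 7.69 (wide) in Pax7-/-. At day 7 it read 6.62 (narrow), 7.92 and 7.64 (wide) in Pax7+/+ against 5.55 and 5.42 (narrow) and 6.42 (wide) in Pax7-/-. Again the knockout arrays were the higher ones at day 0 and the lower ones at day 7. At day 21 the 6 values ran from 4.14 to 4.87 log2.

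The pair of probe sets that list 6 Zscan4 copies each and so name no single gene showed the same arrays high and low. The first read 3.93 and 3.94 (narrow) and 3.91 (wide) log2 in Pax7+/+ at day 0, 4.81, 4.94 and 8.06 in Pax7-/- at day 0, 6.21, 8.54 and 8.44 in Pax7+/+ at day 7, and 4.18, 4.76 and 6.54 in Pax7-/- at day 7. Probes of such near-identical copies can share RNA, so the 4 Zscan4 readings are not 4 independent measurements. The single-symbol probe set of another copy, Zscan4a, differed by 0.75 ± 0.35 log2 (SE) between genotypes at day 0 and by -0.81 ± 0.36 at day 7 (limma adjusted p = 0.441 and 0.46).

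Tdpoz3, a gene of the TRAF and BTB/POZ domain family on chromosome 3, and Pramel19, a leucine-rich PRAME-like gene on chromosome 4, ran closely with Zscan4. Pramel19 read 4.27 and 4.28 (narrow) and 4.25 (wide) log2 in Pax7+/+ and 4.48 and 4.57 (narrow) and 7.83 (wide) in Pax7-/- cells at day 0. Its day 7 readings were 6.03 (narrow), 9.0 and 9.19 (wide) in Pax7+/+ and 4.42 and 4.92 (narrow) and 6.39 (wide) in Pax7-/-. The day 0 difference of Pramel19 was thus small on narrow arrays, 0.25 log2, and large on wide arrays, 3.58 log2. Tdpoz3 read 4.24 and 4.01 (narrow) and 3.73 (wide) log2 in Pax7+/+ against 4.37 and 4.33 (narrow) and 5.84 (wide) in Pax7-/- at day 0. At day 7 it read 5.11 (narrow), 7.35 and 7.74 (wide) in Pax7+/+ against 4.56 and 4.48 (narrow) and 5.17 (wide) in Pax7-/-. At day 21 the readings of Tdpoz3 ran from 3.73 to 4.22 log2 and those of Pramel19 from 4.01 to 4.50 log2. For both genes the knockout was lower on narrow and higher on wide arrays at that day.

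Zfp352, Pramel20 and Tmem92 shared the day 7 pattern, and at day 0 the genotypes of Zfp352 and Pramel20 overlapped or differed in opposite directions between the sets. Pramel20, whose window carries the inverted pair of TGATTNAA matches, read 5.19 and 5.46 (narrow) and 4.13 (wide) log2 in Pax7+/+ and 5.07 and 5.36 (narrow) and 4.95 (wide) in Pax7-/- at day 0. At day 7 it read 6.45 (narrow), 7.94 and 8.28 (wide) in Pax7+/+ and 5.08 and 4.98 (narrow) and 4.73 (wide) in Pax7-/-. Wild-type embryoid bodies thus stood alone: the other 5 groups of Pramel20 lay between 4.98 and 5.46 log2 on narrow and between 4.13 and 5.12 log2 on wide arrays. The 3 probe sets that list Pramel20 with 5 other genes had the same shape, with genotype differences at day 7 of -2.19 to -2.32 log2 on narrow and -3.96 to -4.04 log2 on wide arrays.

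Zfp352, a zinc finger gene of the early embryo on chromosome 4, had the smallest step to day 7 in Pax7+/+ and, at day 0, its highest reading of that day on the wide Pax7+/+ array. It read 4.45 and 4.42 (narrow) and 5.83 (wide) log2 in Pax7+/+ and 4.53 and 4.53 (narrow) and 5.38 (wide) in Pax7-/- at day 0. At day 7 the readings were 5.17 (narrow), 6.11 and 6.79 (wide) in Pax7+/+ and 4.07 and 4.52 (narrow) and 4.59 (wide) in Pax7-/-. Tmem92, a transmembrane protein gene on chromosome 11, read 5.21, 4.79 (narrow) and 4.42 (wide) log2 in Pax7+/+ and 5.32, 5.79 (narrow) and 5.72 (wide) in Pax7-/- at day 0. By day 7 they were 6.35 (narrow), 6.68 and 6.86 (wide) in Pax7+/+ and 5.26, 5.43 (narrow) and 4.78 (wide) in Pax7-/-. Tmem92 was higher in Pax7-/- without overlap within either set at day 0, whereas Zfp352 was higher on narrow and lower on wide arrays and Pramel20 overlapped on narrow arrays.

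The first comparison asked how stem cells without Pax7 differed at day 0. Differences are Pax7-/- minus Pax7+/+ from limma on all 18 arrays, with a block for the array set, so that 1 log2 is a 2-fold difference. The difference was 2.39 ± 0.66 log2 (SE) for Zscan4e, 1.84 ± 0.63 for Zscan4b, 1.83 ± 0.56 for Zscan4c and 1.64 ± 0.40 for Zscan4d. It was 1.36 ± 0.63 log2 for Pramel19, 0.85 ± 0.45 for Tdpoz3 and 0.80 ± 0.23 for Tmem92. Pramel20 (0.20 ± 0.37 log2) and Zfp352 (-0.08 ± 0.30 log2) differed by less than their standard errors. The median of the 9 was 1.36 log2, against 0.01 over all genes. In 7 of the 9 genes the knockout arrays were higher with no overlap within either array set, as was the case in 12.1% of all genes; the rule used this contrast, and nothing is read from the count.

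The size of the day 0 difference depended on the array set. The median of the 9 genes was 0.56 log2 on the narrow arrays and 3.13 log2 on the wide ones, where each genotype had 1 array. Zscan4e differed by 1.35 log2 on narrow and 4.47 on wide arrays, and Zscan4c by 0.78 and 3.92. Without the wide Pax7-/- array of day 0 (replicate 2) the median was 0.63 log2.

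The next comparison asked the same of embryoid bodies at day 7. Here all 9 genes were lower in Pax7-/-, with no overlap within either set, against 16.8% of all genes lower in that way, and with a median of -1.89 log2. The choice of the genes used this contrast as well, and nothing is read from the count. The difference was -2.63 ± 0.38 log2 for Pramel20, 6.21-fold, and -2.41 ± 0.65 for Pramel19. Among the Zscan4 genes it ran from -2.37 ± 0.67 log2 for Zscan4e to -1.43 ± 0.41 for Zscan4d, with -2.09 ± 0.64 for Zscan4b and -1.89 ± 0.57 for Zscan4c between them. Tdpoz3 differed by -1.79 ± 0.46 log2, Tmem92 by -1.56 ± 0.23 and Zfp352 by -1.41 ± 0.30. The array sets were closer at this day, with medians of -1.14 log2 on narrow and -1.98 log2 on wide arrays. For Zscan4b (-1.41 log2 on narrow, -1.97 on wide arrays) and Zscan4d (-1.14 and -1.36) the fit fell outside both sets. With a set block within each day, an alternative added after the data were seen, they came to -1.69 ± 0.44 and -1.25 ± 0.32 log2. Only 1 narrow Pax7+/+ array, replicate 1, was made at day 7, and without it the median was -2.65 log2.

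**Figure D2:**
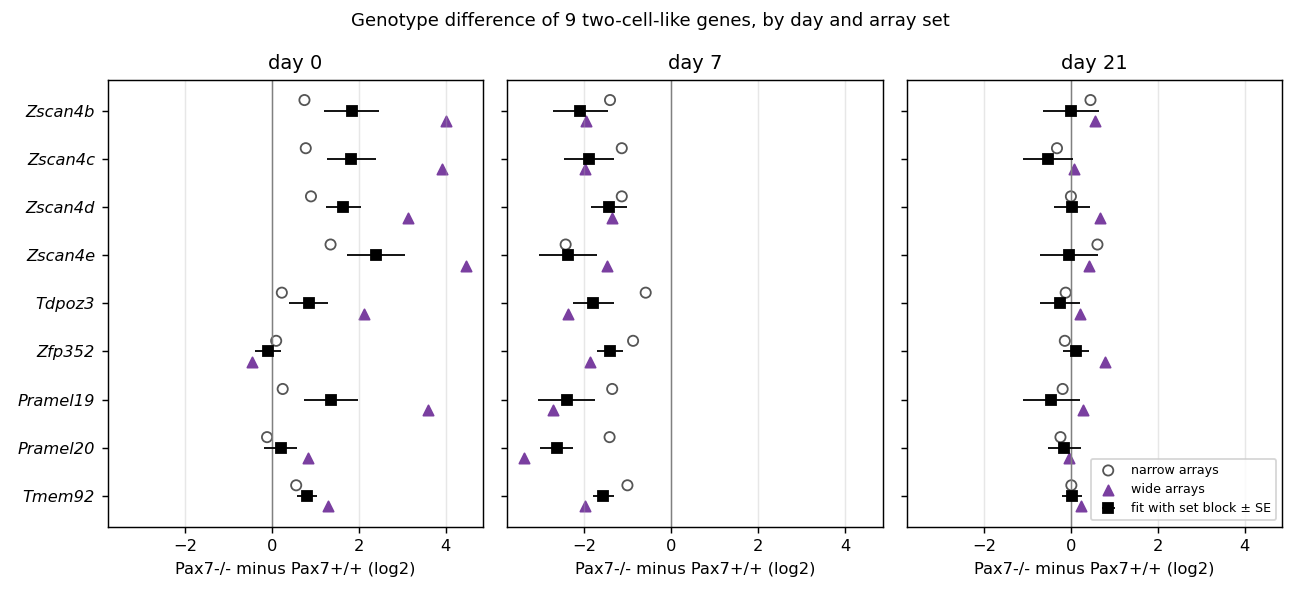
Genotype difference (Pax7-/- minus Pax7+/+, log2) of the 9 genes at day 0, day 7 and day 21. Squares with bars are limma's blocked estimate ± SE, open circles the difference of means on narrow arrays and triangles that on wide arrays. All 9 squares lie below 0 at day 7, while at day 21 they lie between -0.52 and 0.12 log2.

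Since the knockout was higher at day 0 and lower at day 7, the genotype difference itself changed by -1.33 to -4.76 log2, with a median of -3.07. The change was -4.76 ± 0.94 log2 for Zscan4e, -3.93 ± 0.89 for Zscan4b, -3.72 ± 0.80 for Zscan4c and -3.07 ± 0.58 for Zscan4d. Pramel19 gave -3.76 ± 0.91 log2, Pramel20 -2.83 ± 0.53, Tdpoz3 -2.65 ± 0.65, Tmem92 -2.37 ± 0.33 and Zfp352 -1.33 ± 0.43. For Pramel20 and Zfp352 nearly all of the change came from day 7. With a set block within each day the change ran from -1.28 ± 0.34 log2 for Zfp352 to -4.34 ± 0.61 for Zscan4e.

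At day 21, the contrast that played no part in the choice of the genes, 0 of 9 passed a Benjamini-Hochberg adjusted p of 0.05 over all genes in limma, against 4.89% of all genes. None had an unadjusted p under 0.05 either, the adjusted p ran from 0.741 to 0.999, and limma with a trend and robust spread also called 0. The differences ran from -0.52 ± 0.57 log2 for Zscan4c to 0.12 ± 0.30 for Zfp352, with standard errors of 0.23 to 0.67 log2 over the 9. The distance between the array sets was not the same at all days, and the fit can then fall outside both sets: Zscan4b came to 0.00 ± 0.64 log2 with 0.45 on narrow and 0.55 on wide arrays, and to 0.50 ± 0.44 (adjusted p = 0.605) with a set block within each day, an alternative added after the data were seen. Arrays without overlap within either set were higher in the knockout for 2 genes (Zscan4b and Zscan4e) and lower for 1 (Pramel20), against 18.8% and 17.3% of all genes. The median of the 9 genes was -0.12 log2 on narrow and 0.28 log2 on wide arrays. At this day Pax7-/- had 1 narrow array and Pax7+/+ had 1 wide array, so calls within a set alone are not read.

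Within Pax7+/+ cells all 9 genes were higher at day 7 than at day 0 with no overlap within either set, against 19.0% of all genes. The genes were chosen with these levels known, so nothing is read from the counts of this paragraph. The step was 4.22 ± 0.67 log2 for Zscan4e, 3.48 ± 0.64 for Zscan4b, 2.78 ± 0.57 for Zscan4c and 2.53 ± 0.41 for Zscan4d. It was 3.38 ± 0.65 log2 for Pramel19, 2.64 ± 0.38 for Pramel20, 2.54 ± 0.46 for Tdpoz3, 1.91 ± 0.23 for Tmem92 and 0.91 ± 0.30 for Zfp352. The median of the 9 steps was 2.64 log2, with 1.38 on narrow and 3.97 on wide arrays. Within Pax7-/- cells the same step ran from -0.93 ± 0.56 log2 for Zscan4c to -0.11 ± 0.45 for Tdpoz3, with a median of -0.46. In 3 of the 9 genes the Pax7-/- arrays of day 7 were all lower than those of day 0 within both sets, against 15.4% of all genes. Without the wide Pax7-/- array of day 0 (replicate 2) the median step in Pax7-/- was 0.06 log2.

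From day 7 to day 21 all 9 genes were lower in Pax7+/+ without overlap within either set, against 18.8% of all genes. Their levels at day 7 were known when they were chosen, so nothing is read from these counts either. Zscan4e was lower by -4.62 ± 0.67 log2, Zscan4b by -3.54 ± 0.64, Pramel19 by -3.34 ± 0.65 and Tmem92 by -2.11 ± 0.23. In Pax7-/- the step was -2.29 ± 0.67 log2 for Zscan4e and -1.44 ± 0.64 for Zscan4b, while Pramel20 (0.12 ± 0.38 log2) and Zfp352 (0.23 ± 0.30 log2) were about as low at day 7 as at day 21. In 6 of the 9 genes the Pax7-/- arrays did not overlap within either set and were lower at day 21, against 14.5% of all genes.

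Across the 18 arrays, with each gene centred within each array set, most of the genes ran closely together and Zfp352 and Pramel20 less so. Pearson's r was 0.96 to 0.98 among the 4 Zscan4 genes, 0.91 to 0.98 between them and Tdpoz3 or Pramel19, and 0.98 between Tdpoz3 and Pramel19. Tmem92 had r = 0.91 to 0.92 with the Zscan4 genes, 0.93 with Tdpoz3 and 0.92 with Pramel19, and lower values with Pramel20 (0.82) and Zfp352 (0.73). With the Zscan4 genes r was 0.66 to 0.73 for Pramel20 and 0.58 to 0.63 for Zfp352. The arrays share groups and sets, so these values describe the pattern and carry no test. The wide Pax7-/- array of day 0 was where the genes parted: the Zscan4 mean lay 1.96 log2 above the mean of its set, Tmem92 lay 0.54 above, Zfp352 was at 0.01 and Pramel20 at -0.71. On the wide Pax7-/- array of day 7 the Zscan4 mean was at 0.76 log2, and the mean of Zfp352, Pramel20 and Tmem92 at -0.70.

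**Figure D3:**
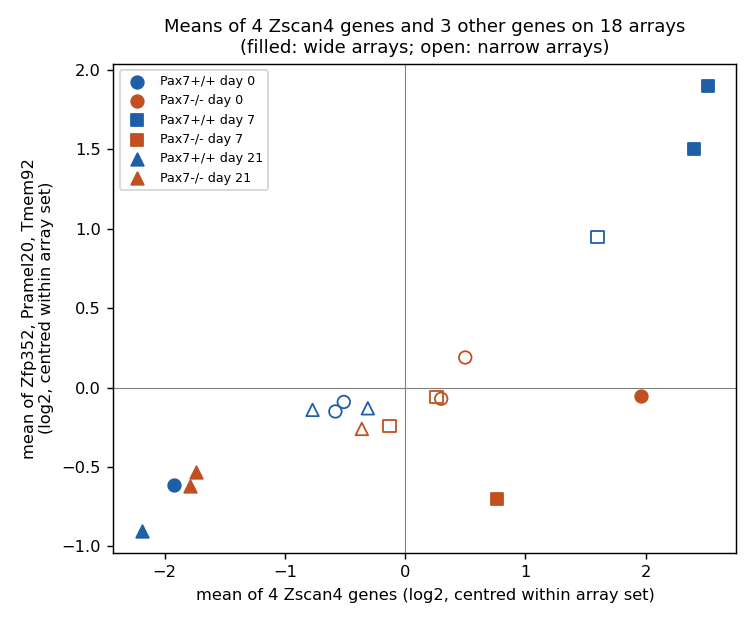
Mean level of the 4 Zscan4 genes (x axis) against the mean of Zfp352, Pramel20 and Tmem92 (y axis) on each of 18 arrays, in log2 relative to the mean of the array's own set. Filled symbols are wide and open symbols narrow arrays. The 3 Pax7+/+ arrays of day 7 are high on both axes (1.6 to 2.52 against 0.95 to 1.90), while the wide Pax7-/- array of day 0 is at 1.96 on the x axis and -0.05 on the y axis, a mean of 3 genes that differed there.

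The genes whose levels ran most like the Zscan4 mean over the 18 arrays, outside the 9, were Gm5662 and Gm11546 (r = 0.98 each) and Gm2022, Gm4340 and Gm11543 (r = 0.97 each). Within the 10 narrow arrays alone their r was 0.80 to 0.93, and within the 8 wide arrays 0.99 to 1.00. Gm5662 read 2.93 and 2.99 (narrow) and 3.03 (wide) log2 in Pax7+/+ at day 0, 3.41, 3.33 and 6.33 in Pax7-/- at day 0, and 4.27, 6.89 and 6.98 in Pax7+/+ at day 7. Its day 7 values in Pax7-/- were 3.05, 3.17 and 4.77 log2, so it shared the high wide array of day 0. The genes most like the mean of Zfp352, Pramel20 and Tmem92 were D13Ertd608e (r = 0.96), Gm2016 and Pramel21 (0.94 each) and B020031M17Rik and 3110040M04Rik (0.93 each). For B020031M17Rik and 3110040M04Rik the likeness rested on the wide arrays, with r = 0.28 and 0.52 within the narrow ones.

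A list of further genes known from the two-cell-like state, of which 32 of 43 were measured, was counted in the same comparisons. Like the lists below, it was chosen with earlier results of these data known. Its counts and adjusted p are therefore no independent test of the pattern. From day 0 to day 7 in Pax7+/+, 6 of the 32 rose and none fell, against 2.54% of all genes that rose. Gm2016 rose by 1.18 ± 0.16 log2 (limma adjusted p = 0.0003), Usp17le, a deubiquitinase gene, by 2.54 ± 0.53 (adjusted p = 0.00883), Sp110, a nuclear body protein gene, by 2.18 ± 0.45 (adjusted p = 0.009) and Gm5662 by 2.67 ± 0.57 (adjusted p = 0.00973). Sp110 was measured by 3 probe sets that disagreed, and the value is that of the one with the highest mean. The 26 others did not pass, Zscan4a among them (1.03 ± 0.36 log2, adjusted p = 0.119). Without Pax7+/+ replicate 3 of day 0, or without Pax7+/+ replicate 3 of day 7, 1 of the 32 passed, and without Pax7+/+ replicate 1 of day 7, 13 did. Counts with an array left out or at an unadjusted p, for this list and those below, have no share of all genes beside them. They are therefore not compared with all genes.

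**Figure D4:**
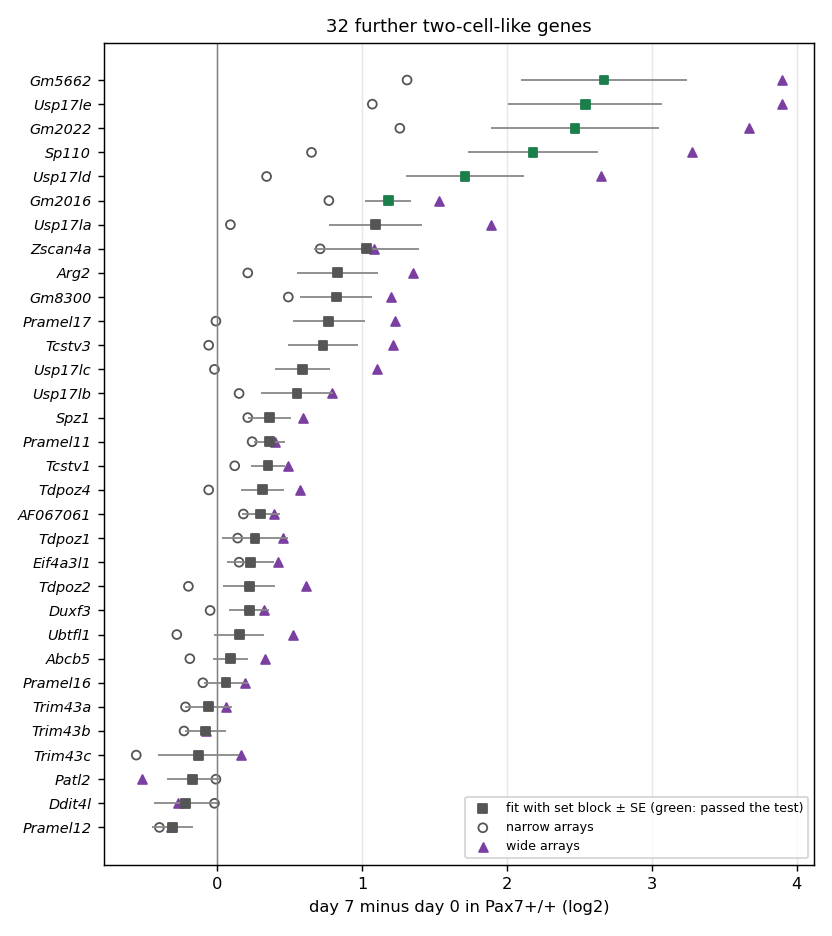
Step from day 0 to day 7 in Pax7+/+ (log2) of 32 further two-cell-like genes. Squares with bars are limma's blocked estimate ± SE, green where the gene passed an adjusted p of 0.05, and circles and triangles are the differences on narrow and wide arrays. The 6 green genes lie between 1.18 and 2.67 log2, and most genes lie further right on wide than on narrow arrays.

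In the same list 5 of the 32 fell from day 7 to day 21 in Pax7+/+, against 4.48% of all genes. Gm2016 fell by 1.49 ± 0.16 log2 (limma adjusted p = 6.55e-05), Sp110 by 2.32 ± 0.45 (adjusted p = 0.00601) and Gm5662 by 2.72 ± 0.57 (adjusted p = 0.0089). This count was 12 without Pax7+/+ replicate 1 of day 7, 8 without Pax7-/- replicate 2 of day 0, 3 without Pax7+/+ replicate 2 or 3 of day 7 and 2 without Pax7+/+ replicate 2 of day 21. In Pax7-/- no gene of the list passed in either step, against 3.86% of all genes in the first step and 0.834% in the second, and 3 and 4 genes of the list had an unadjusted p under 0.05.

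Between genotypes, Gm2016 alone of the 32 passed at day 7, lower in Pax7-/- by -1.24 ± 0.16 log2 (limma adjusted p = 0.0065), against 0.307% of all genes lower. Its arrays read 5.42 (narrow), 5.72 and 5.79 (wide) log2 in Pax7+/+ and 4.34, 4.45 (narrow) and 4.55 (wide) in Pax7-/-. A further 18 of the 32 had an unadjusted p under 0.05, and without Pax7+/+ replicate 1 of day 7 the number that passed was 10. Neither count has the share of all genes beside it. Without that array the Pax7+/+ group of day 7 held wide arrays only. At day 0 none passed (1.28% of all genes did) and 9 had an unadjusted p under 0.05; Gm2022 differed by 1.83 ± 0.57 log2 (adjusted p = 0.157). At day 21 none passed and 1 had an unadjusted p under 0.05. The change of the genotype difference from day 0 to day 7 passed for Gm2016 at -1.51 ± 0.22 log2 (adjusted p = 0.00432), against 0.153% of all genes, and 11 genes of the list passed without Pax7+/+ replicate 1 of day 7.

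Other PRAME-like genes were taken as a family. Of 28 measured, 4 rose from day 0 to day 7 in Pax7+/+, against 2.54% of all genes (Pramel21 by 0.81 ± 0.17 log2, Pramel14 by 1.20 ± 0.26, Pramel24 by 1.28 ± 0.30 and Pramel33 by 0.53 ± 0.14, limma adjusted p = 0.0107 to 0.0313). This count was 1 without Pax7+/+ replicate 3 of day 0 and 2 without Pax7+/+ replicate 2 or 3 of day 7. At day 7 Pramel21 was lower in Pax7-/- by -0.89 ± 0.17 log2 (adjusted p = 0.0308), a call that was lost without any one of Pax7+/+ replicates 2 and 3 and Pax7-/- replicates 1, 2 and 3 of that day. The median of the 28 at day 7 was -0.16 log2, against -0.005 over all genes.

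Among 12 genes listed as possible activators of the two-cell-like state, whose roles were not tested here, Nelfa passed in 5 of 8 comparisons. Nelfa is a subunit of the negative elongation factor. It rose by 0.70 ± 0.13 log2 from day 0 to day 7 in Pax7+/+ (limma adjusted p = 0.00309), was lower in Pax7-/- at day 7 by -0.67 ± 0.13 (adjusted p = 0.0255) and higher in Pax7-/- at day 21 by 0.46 ± 0.13 (adjusted p = 0.048). Over all genes, 2.54% rose in that step, 0.307% were lower at day 7 and 3.82% were higher at day 21. Gata2, a zinc finger factor, rose by 1.49 ± 0.35 log2 over the first step in Pax7+/+ (adjusted p = 0.0176). Dppa2, which with Dppa4 acts upstream of Dux, fell by 1.70 ± 0.33 log2 from day 0 to day 7 in Pax7-/- (adjusted p = 0.00692) and by 3.47 ± 0.34 from day 7 to day 21 in Pax7+/+ (adjusted p = 3.18e-05). Of all genes 1.82% and 4.48% fell in these 2 steps. Duxf3, the one probe set of the Dux family measured and named here after its values were seen, differed by 0.06 ± 0.13 log2 at day 0 and -0.16 ± 0.14 at day 7 (adjusted p = 0.909 and 0.816). It did not pass in any of the 8 comparisons.

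A list of 30 genes held possible repressors of the state, whose roles were not tested here. Among them Hdac1, a histone deacetylase, was lower in Pax7-/- at day 0 by -0.81 ± 0.18 log2 (limma adjusted p = 0.0391) and at day 7 by -0.91 ± 0.19 (adjusted p = 0.0355). Of all genes 0.893% were lower at day 0 and 0.307% at day 7. The other 29 did not pass at either day. At day 21, 7 of the 30 were higher in Pax7-/-, against 3.82% of all genes. Lin28a was higher by 1.06 ± 0.13 log2 (limma adjusted p = 0.000397), Ncl by 0.99 ± 0.19 and Chaf1b, a CAF-1 subunit, by 0.70 ± 0.14. Any link of these genes to the levels of the 9 was not tested. Over the first step 7 of the 30 fell in Pax7+/+ (3.14% of all genes fell) and 6 fell in Pax7-/- (1.82%), Rif1 by 1.28 ± 0.24 and 1.47 ± 0.24 log2. Of 14 telomere and recombination genes, the group of processes Zscan4 is known for, none passed between genotypes at day 0 or day 7, with 2 at an unadjusted p under 0.05 at each day. Brca2 was the 1 gene of the 14 that was higher in Pax7-/- at day 21, by 0.55 ± 0.13 log2 (limma adjusted p = 0.0214), against 3.82% of all genes. From day 7 to day 21 in Pax7+/+ 3 of the 14 fell (Terf1, Acd and Brca2), against 4.48% of all genes.

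Markers of other cells differed between the same groups. At day 7, 4 of 13 trophoblast and epithelium markers (Cldn4, Plet1, Gjb5 and Aqp3) were lower in Pax7-/-, against 0.307% of all genes, Plet1 by -1.21 ± 0.17 log2 (limma adjusted p = 0.0065). The other 9 did not pass, among them Cdx2 (-0.02 ± 0.17 log2), Elf5 (0.11 ± 0.12), Eomes (-0.29 ± 0.16), Krt8 (-0.30 ± 0.34) and Krt18 (-0.29 ± 0.22). At day 0 Cldn4 was already lower in Pax7-/- (-1.12 ± 0.16 log2, limma adjusted p = 0.00186), while Krt18 was higher (0.93 ± 0.22, adjusted p = 0.0477). The list's mean level at day 7 was 6.18 log2 on the narrow Pax7+/+ array and 5.76 and 5.77 on the narrow Pax7-/- arrays. At day 0, 5 of 14 endoderm markers were higher in Pax7-/-, against 0.388% of all genes, Lama1, a laminin chain, by 2.38 ± 0.20 log2 (adjusted p = 1.82e-05), and the list's mean was 6.33 to 6.38 log2 on narrow Pax7+/+ and 6.86 to 6.89 on narrow Pax7-/- arrays. Fbxo15, an F-box gene of stem cells, was the one of 17 naive pluripotency markers that passed at both days, with 1.17 ± 0.13 log2 at day 0 (adjusted p = 0.000364) and -0.78 ± 0.13 at day 7 (adjusted p = 0.0137), the same signs as Zscan4. The mean of the pluripotency list was 7.51 to 7.63 log2 in Pax7+/+ and 7.52 to 7.57 in Pax7-/- on the narrow arrays of day 0, and 6.63 against 6.13 and 6.43 on those of day 7. Of 10 fibroblast markers Fn1 alone passed at day 0, lower in Pax7-/- by -1.05 log2, against 0.893% of all genes lower. None of 8 neural markers passed at day 0, when 1.28% of all genes passed in either direction, or at day 7. The part of these markers in the levels of the 9 genes was not tested.

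Some genes beside Tmem92 on chromosome 11 ran like it. For each member the 5 nearest measured genes on each side outside the member families were taken in the order of GRCm38.p6, a set chosen after the data were seen. Of the 10 beside Tmem92, 5 rose from day 0 to day 7 in Pax7+/+, against 2.54% of all genes: Gm11543 by 4.86 ± 0.65 log2 (limma adjusted p = 0.000267), Gm11546 by 3.93 ± 0.66 (adjusted p = 0.00178), AA623943 by 2.60 ± 0.53 (adjusted p = 0.00749), Gm11544 by 2.22 ± 0.54 (adjusted p = 0.0223) and Gm11545 by 1.13 ± 0.32 (adjusted p = 0.0477). Gm11544 differed by 0.14 log2 on narrow and 3.74 on wide arrays, so its call rested on the wide ones. Gm11543 read 3.58 and 3.45 (narrow) and 3.67 (wide) log2 in Pax7+/+ at day 0, 7.59, 9.47 and 9.64 in Pax7+/+ at day 7, and 3.74, 3.98 (narrow) and 7.00 (wide) in Pax7-/- at day 7. It was lower in Pax7-/- at day 7 by -3.52 ± 0.65 log2 (adjusted p = 0.0252), and whether its probes share sequence with Tmem92 was not tested.

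None of the 10 genes beside Zscan4b and none of the 10 beside Tdpoz3 passed in any comparison. Beside Pramel19, Ak4, a mitochondrial adenylate kinase gene, rose by 1.70 ± 0.17 log2 from day 0 to day 7 in Pax7+/+ (limma adjusted p = 1.44e-05) and was lower in Pax7-/- at day 7 by -1.09 ± 0.17 (adjusted p = 0.00998). Beside Pramel20, Pdpn, the podoplanin gene, fell by 0.34 ± 0.09 log2 over the same step (adjusted p = 0.0395), and Lrrc38, which did not pass, differed by 1.45 ± 0.48 log2 (adjusted p = 0.0944; 0.27 on narrow and 2.65 on wide arrays).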

How the data were processed

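RNA of mouse embryonic stem cells and their derivatives was measured on 18 Affymetrix arrays, 3 for each genotype and day named in the labels. Per the submitters' processing notes, RMA and Partek were used, with no version given. The deposited table holds 1 log2 intensity for each probe set and array. Whether the narrow (SD over probe sets up to 1.6) and wide arrays come from 1 joint summary is not given in the sources used here. Of 41345 probe sets, 23521 carried 1 gene symbol in the platform annotation, 1814 several and 16010 none, and the probe set with the highest mean was kept for each of 22180 genes. The array number limits the precision of array data; the level of one probe set was not compared with that of another.

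Differences were fitted with limma 3.58.1 in R 4.3.3 (6 group means, array set as a fixed block, 11 residual degrees of freedom, Benjamini-Hochberg over all genes at 0.05), and the code was tested on simulated data. The members and lists were chosen with earlier results of these data known. Named were all members and, per list and comparison, up to 4 passing genes with the lowest adjusted p or up to 2 where none passed. Likeness is Pearson's r after centring each gene within each set. Alternatives were each array set alone, no set block, other scalings, a level filter, the mean of all probe sets, a trend with robust spread, a replicate block, leaving out each array, and, added after the data were seen, a set block within each day. Replicate numbers were not taken to pair the samples. After group means and array set were removed, the residuals of arrays of one number and day correlated between -0.215 and 0.231. All arrays numbered 1 were narrow, so number and set are linked and these values do not exclude a pairing. Tables and plots used Python 3.11.15 with matplotlib 3.10.9.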

Additional observations from a re-analysis of the deposited data

Results flagged for a closer look

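The genotype difference turned from higher in Pax7-/- at day 0 to lower in Pax7-/- at day 7, without overlap between genotypes within either array set at both days, in 7 of the 9 genes. Of all genes 12.1% were higher in that way at day 0 and 16.8% lower at day 7. The share that did both was not counted. Both contrasts were used in the choice of the 9 genes, so nothing is read from the count. The change was -3.93 log2 for Zscan4b, -3.72 for Zscan4c, -3.07 for Zscan4d and -4.76 for Zscan4e. It was -2.65 log2 for Tdpoz3, -3.76 for Pramel19 and -2.37 for Tmem92. For these 7 genes the difference between the days was not tested, since they were listed with both results known.

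The same change was tested for genes outside the 9 and passed in limma for Gm2016 (-1.51 log2, adjusted p = 0.00432), Pramel33 (-1.01 log2, adjusted p = 0.0261), Nelfa (-0.83 log2, adjusted p = 0.0478) and Pramel21 (-1.16 log2, adjusted p = 0.0493). The lists that hold these genes were also chosen with earlier results of these data known. In the PRAME-like list the count of passing genes, 2, went to 0 without any one of Pax7+/+ day 0 replicates 1 and 2, Pax7+/+ day 7 replicate 2, Pax7-/- day 0 replicate 1 and Pax7-/- day 7 replicates 2 and 3, and to 6 without Pax7+/+ day 7 replicate 1.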

How the results depend on the processing

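The direction of the median over the 9 genes was kept on each array set alone in every comparison but day 21, while its size was not. On the narrow arrays alone the median was 0.56 log2 at day 0, -1.14 at day 7, 1.38 from day 0 to day 7 in Pax7+/+, -1.53 from day 7 to day 21 in Pax7+/+, -0.41 in Pax7-/- and -1.61 for the change of the genotype difference. On the wide arrays alone it was 3.13 at day 0, 3.97 and -3.81 for the steps in Pax7+/+ and -4.50 for the change of the difference. At day 21 it was -0.12 on narrow and 0.28 on wide arrays, with 1 array of a genotype in each set. Over the 7 members above the median level the change of the difference was -3.72. Leaving out each array gave 0.63 to 1.74 at day 0, -2.65 to -1.56 at day 7, -0.71 to 0.22 at day 21, 2.13 to 3.42 and -0.76 to 0.06 from day 0 to day 7 in Pax7+/+ and Pax7-/-, -3.24 to -2.01 and -1.40 to -0.94 from day 7 to day 21, and -3.62 to -2.73 for the change, with 0 members called at day 21 each time. The step of Zscan4d from day 0 to day 7 in Pax7-/- was -0.54 and ran from -0.95 to 0.06 when single arrays were left out. It reversed to 0.06 without Pax7-/- day 0 replicate 2. Without that array the median of this step over the 9 genes also went from -0.46 to 0.06, so most of them no longer fell. The causes were not tested. Of 2072 values of single members, the reversal of Zscan4d among them, 1935 moved by less than the spread and 136 by more, and of 464 list counts 337 stayed within 1.5 times. With the replicate block, which shares only numbers, the members' medians were 1.36 at day 0, -1.84 at day 7 and -0.05 at day 21, and 34 genes were called higher and 97 lower at day 0 (86 and 198 without the block), 1 and 2 at day 7 (71 and 68), and 502 and 125 at day 21 (847 and 238). Without the array set block 0 genes were called between genotypes at each day, with 167, 278 and 539 at an unadjusted p under 0.05. The signal over background was not used, since the deposited values hold none.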
